A study of Homo sapiens with 12 samples.

Results

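The genes described here are 38 genes of the G2 phase and of mitosis, taken by gene symbol from a list of regulators, checkpoint proteins, kinesins and spindle proteins. The list was chosen with earlier results of these data known. All 38 symbols were found, each once, among the 58233 genes of the deposited tables. RNA sequencing of total RNA measured them in 12 libraries of K562 cells, a line from a patient with chronic myeloid leukaemia that grows in suspension and divides without pause in culture. The groups were 3 K562 clones in which CRISPR/Cas9 had knocked out the mutant ASXL1 allele, 3 parental K562 clones, 2 FOXK1 knockout pools, 2 FOXK2 knockout pools and 2 pools made with the SCR control guide. ASXL1 is a chromatin regulator of the Polycomb deubiquitinase complex, and FOXK1 and FOXK2 are forkhead transcription factors. Each ASXL1 library stands for 1 clone. The FOXK libraries come from cell pools, and a pool can hold unedited cells. Nothing in the labels says that the clones or pools were grown as separate cultures on separate days, so the p-values reflect only how much the libraries of a group vary, which may be technical. K562 was checked against its own markers: all 15 K562 and erythroid markers listed, among them the globins and GATA1, were present. Their summed level, most of it HBG2, lay between 13209.6 and 32386 FPKM in every library.

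Cells pass from G2 into mitosis when cyclin B and CDK1 become active, a switch that PLK1, Aurora A and the CDC25 phosphatases reinforce. The spindle checkpoint then holds the anaphase-promoting complex (APC/C) back until every kinetochore is attached, after which CDC20 activates the complex, cyclin B is destroyed and the sister chromatids part. The genes for these proteins are transcribed late in the cell cycle through shared promoter elements: the cell cycle genes homology region (CHR), read by the MuvB complexes with B-MYB and FOXM1, and the CCAAT box, read by NF-Y. In a cycling culture their messenger levels depend both on transcription and on how many cells are in G2 or mitosis, and bulk libraries cannot tell fewer such cells from less RNA per cell.

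The shared elements can be read in the promoters, and 5 are shown as examples. They belong to the genes called lower in the mutant ASXL1 knockout clones that had the smallest adjusted p among those with a CHR in the 250 bases before the start, and all 5 carry a CCAAT box too. CDC20, KIF4A and PLK1, also called lower, have both elements there and are not shown. The letters come from RefSeq (GRCh38.p14), cover the 250 bases before the start and run 5′ to 3′ on the gene's strand. Capitals mark TTTGAA, its reverse complement TTCAAA or TTCGAA (the CHR), and CCAAT or its reverse complement ATTGG.
CDCA8 (chr1:37692266-37692515, plus strand): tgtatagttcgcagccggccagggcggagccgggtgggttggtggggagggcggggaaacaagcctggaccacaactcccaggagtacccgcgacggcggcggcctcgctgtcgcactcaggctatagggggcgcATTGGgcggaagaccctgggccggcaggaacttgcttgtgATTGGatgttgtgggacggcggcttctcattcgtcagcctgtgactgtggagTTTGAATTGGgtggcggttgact
CENPA (chr2:26785806-26786055, plus strand): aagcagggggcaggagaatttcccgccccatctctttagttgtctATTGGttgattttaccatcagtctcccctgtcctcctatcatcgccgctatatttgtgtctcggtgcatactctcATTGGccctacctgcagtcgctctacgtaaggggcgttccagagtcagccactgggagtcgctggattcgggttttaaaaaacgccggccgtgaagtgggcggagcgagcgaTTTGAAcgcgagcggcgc
DLGAP5 (chr14:55191586-55191835, minus strand): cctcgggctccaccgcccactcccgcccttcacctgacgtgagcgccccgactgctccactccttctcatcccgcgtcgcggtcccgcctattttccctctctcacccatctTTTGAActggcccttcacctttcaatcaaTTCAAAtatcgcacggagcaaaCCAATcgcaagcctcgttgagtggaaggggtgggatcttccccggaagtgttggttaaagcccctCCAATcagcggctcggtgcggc
KIF23 (chr15:69414099-69414348, plus strand): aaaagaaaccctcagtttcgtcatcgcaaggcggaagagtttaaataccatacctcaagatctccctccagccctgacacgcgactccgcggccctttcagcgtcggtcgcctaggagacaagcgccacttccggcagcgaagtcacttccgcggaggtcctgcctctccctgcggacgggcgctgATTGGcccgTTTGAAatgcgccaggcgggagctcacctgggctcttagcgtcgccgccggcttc
TOP2A (chr17:40417897-40418146, minus strand): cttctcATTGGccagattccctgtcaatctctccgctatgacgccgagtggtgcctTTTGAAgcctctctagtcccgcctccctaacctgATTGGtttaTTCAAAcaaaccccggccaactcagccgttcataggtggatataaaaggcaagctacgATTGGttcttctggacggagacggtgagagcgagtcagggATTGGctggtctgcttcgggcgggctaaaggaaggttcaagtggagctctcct
In CDCA8 the CHR and a CCAAT box overlap by shared letters close to the start. In DLGAP5 and TOP2A each element occurs more than once.

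RefSeq promoters were matched for 32 of the 38 genes (not for AURKA, TPX2, TTK, UBE2C, BUB3 and BIRC5). In the 300-base window from 250 bases before to 50 bases after the start, 26 of 32 held a CHR in either form on either strand, or 81.25%, against 19.5% of 27305 genes with a promoter. The CCAAT box stood in 26 of 32, against 39.7% of all genes, and both elements stood in the same promoter in 22 of 32, or 68.75%, against 7.85%. The forkhead core TAAACA, searched on both strands, was in 4 of 32 promoters, or 12.5%, against 14.7% of all genes. The 6 members with no CHR letters in this window were AURKB, CCNA2, CCNB1, CENPE, KIF20A and KIF2C. Of these 6, 5 were called lower in the mutant ASXL1 knockout clones (all but CCNA2), with a median log2 fold change of -0.35, against 11 of the 26 with a CHR, whose median was -0.19. The difference between the 6 and the 26 was not tested. A match describes letters and is not evidence of binding.

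Levels spanned a wide range in all groups. They are given in FPKM, the deposited unit, which scales fragments to transcript length and library size. BUB3, a checkpoint protein that docks BUB1 at kinetochores, was the most abundant at 178 to 203 FPKM over the 12 libraries. CENPE, a kinesin of the kinetochore, lay between 7.87 and 11.0 FPKM. UBE2C, the ubiquitin-conjugating enzyme that works with the APC/C, was listed at only 0.744 to 2.11 FPKM, near the 1 FPKM needed for a gene to be tested. The 38 genes together summed to 2094 to 2223 FPKM in the mutant ASXL1 knockout clones, 2418 to 2430 in the FOXK1 pools, 2338 to 2392 in the FOXK2 pools, 2360 to 2394 in the SCR pools and 2425 to 2570 in the parental clones. As a share of all summed FPKM this was 0.254% to 0.265% in the mutant ASXL1 knockout clones, against 0.267% to 0.272% in the parental ones. The pools had shares as low as the knockout clones or lower. These were 0.254% to 0.257% in the SCR pools, 0.249% to 0.253% in the FOXK1 pools and 0.246% to 0.255% in the FOXK2 pools.

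The libraries themselves differed between the ASXL1 groups. All genes summed to 824692 to 839261 FPKM in the mutant ASXL1 knockout clones, and the parental clones reached 899097 to 961495 FPKM. Mitochondrially encoded genes took between 10.7% and 11.04% of the sum in the mutant ASXL1 knockout clones, against 13.3% to 15.0% in the parental ones, and their part in the differences below was not tested. Between 13348 and 13681 genes reached 1 FPKM in each library. ASXL1 itself had 32.0, 26.9 and 29.2 FPKM in the mutant ASXL1 knockout clones, against 49.7, 58.5 and 39.8 FPKM in the parental clones, and fell by 0.72 (SE 0.139, adjusted p = 0.0142). Without knockout clone 3 the call was lost (adjusted p = 0.0568). In the authors' deposited table ASXL1 differed by -0.08 on the log2 scale and was not called (adjusted p = 0.436). The FPKM level pools both alleles, so it does not check the deletion directly. FOXK2 fell to 25.5 and 27.5 FPKM in the FOXK2 pools, against 42.6 and 40.7 FPKM in the SCR pools (-0.64 on the log2 scale, SE 0.0702, adjusted p = 0.0445). FOXK1 had 5.59 and 6.07 FPKM in the FOXK1 pools, against 6.24 and 6.26 FPKM in the SCR pools, a difference of -0.09 that did not pass (adjusted p = 0.648). The authors' deposited table gives -0.26 for FOXK1 in the FOXK1 pools (adjusted p = 0.0189), a call, and -0.59 for FOXK2 in the FOXK2 pools (adjusted p = 2.5e-17). Lymphoid markers summed to 41.2 to 45.2 FPKM in the mutant ASXL1 knockout clones, against 55.4 to 70.1 FPKM in the parental clones, nearly all of it CD3D, with CD8A and MS4A1 at 0 in all 12 libraries. The 9 adherent cell markers listed summed to 407.6 to 475.1 FPKM over the 12 libraries, nearly all of it KRT8, KRT18 and EPCAM. In the mutant ASXL1 knockout clones EPCAM was called higher and KRT8 lower than in the parental clones.

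The first comparison asked how the genes differ once the mutant ASXL1 allele is removed. In the mutant ASXL1 knockout clones 17 of the 38 genes fell and 0 rose. Across all 13597 genes tested, 14.4% fell and 7.91% rose. The 17 were BUB1, AURKB, KIF2C, CENPF, CDCA8, NDC80, CENPA, CCNB1, KIF20A, DLGAP5, KIF23, TPX2, TOP2A, CENPE, CDC20, KIF4A and PLK1. The falls were small, -0.18 to -0.46 on the log2(FPKM + 1) scale, and for each of the 17 the highest mutant ASXL1 knockout clone was still lower than the lowest parental clone. The test was limma on log2(FPKM + 1), with p-values adjusted by Benjamini and Hochberg's method over all tested genes and 0.05 as the threshold. The fold change was negative in 37 of 38, against 58.4% of all tested genes, and the groups did not overlap in 27 of 38, all of them lower, against 26.6% of all genes lower and 16.3% higher. The members' median was -0.20, against -0.06 for all tested genes. At an unadjusted p under 0.05, 26 members were lower and 0 higher, against 37.7% of all genes in either direction.

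**Figure D1:**
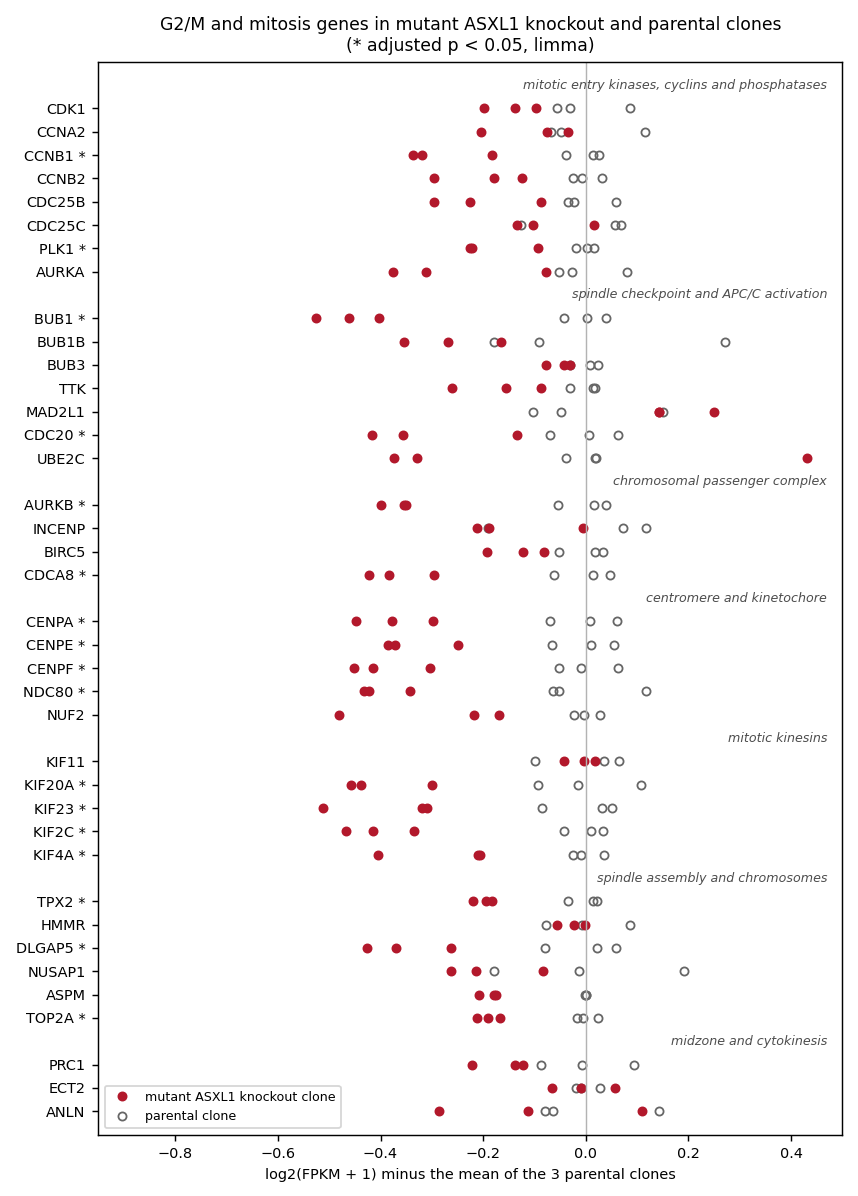
Each row is 1 gene, grouped by role, and each dot 1 clone: filled for mutant ASXL1 knockout and open for parental. The x axis is log2(FPKM + 1) minus the mean of the 3 parental clones, and asterisks mark the 17 genes with an adjusted p under 0.05. Most filled dots lie left of the open ones, in the kinetochore and kinesin rows most of all, while KIF11, HMMR, ECT2 and ANLN mix and MAD2L1 lies to the right.

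Among the genes of mitotic entry 2 of 8 fell, CCNB1 and PLK1, and the median was -0.19. CCNB1, which encodes cyclin B1, the partner that activates CDK1, had 148, 163 and 146 FPKM in the mutant ASXL1 knockout clones, against 180.1, 188 and 187 FPKM in the parental clones. The groups stood apart, with the second knockout clone nearest to the parental ones, and CCNB1 fell by 0.28 (SE 0.0546, adjusted p = 0.0145). PLK1, the Polo kinase of mitotic entry and spindle assembly, had 102, 111 and 102 FPKM against 119, 120.4 and 117 FPKM, knockout and parental in that order, and fell by 0.18 (SE 0.0523, adjusted p = 0.0486). The PLK1 call held in only 2 of 15 alternatives and was lost under all 4 other scalings (adjusted p up to 0.773). CCNB2, the second B-type cyclin, lay just outside the threshold with a difference of -0.20 (adjusted p = 0.05005). CDK1, the kinase itself, had 109, 116 and 113 FPKM in the knockout clones and 119.9, 122 and 132 FPKM in the parental clones, a difference of -0.14 that did not pass (adjusted p = 0.109). CCNA2 and CDC25C, a cyclin of S phase and G2 and a phosphatase that activates CDK1, overlapped between the groups. The Aurora A kinase gene AURKA and the phosphatase gene CDC25B did not overlap but did not pass (adjusted p = 0.0765 and 0.0954).

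The spindle checkpoint held the largest fall and the one positive value. BUB1, a kinase that recruits the checkpoint to kinetochores, had 52.3, 57.1 and 54.7 FPKM in the mutant ASXL1 knockout clones, against 73.6, 75.8 and 77.9 FPKM in the parental clones. The gap between the groups was several times the spread within either, and BUB1 fell by 0.46 (SE 0.0544, adjusted p = 0.00319). CDC20, the APC/C activator that the checkpoint restrains, had 88.6, 104 and 85.0 FPKM against 108, 114 and 119 FPKM in the same order and fell by 0.30 (SE 0.0818, adjusted p = 0.0401), a call that held in 3 of 15 alternatives and under none of the 4 other scalings (adjusted p up to 0.181). MAD2L1, which encodes the MAD2 protein that sequesters CDC20, had 63.4, 58.8 and 58.9 FPKM in the knockout clones and 49.5, 51.4 and 59.2 FPKM in the parental clones. The groups overlapped, because the third parental clone was as high as 2 of the knockout clones, and the difference of 0.18 did not pass (SE 0.0783, adjusted p = 0.145). BUB1B, which encodes the checkpoint protein BUBR1, had 55.0, 59.2 and 51.8 FPKM in the knockout clones, against 58.6, 62.4 and 80.5 FPKM in the parental clones, which varied widely, and did not pass (adjusted p = 0.160). TTK, the MPS1 kinase that starts checkpoint signalling, and BUB3 were lower without overlap and also did not pass. UBE2C ran from 0.744 to 2.05 FPKM within the knockout clones alone, a wider range than that of all 3 parental clones (1.20, 1.29 and 1.29 FPKM).

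The chromosomal passenger complex, which corrects faulty kinetochore attachments, had 2 of 4 genes lower. AURKB, its kinase Aurora B, had 85.8, 85.5 and 82.8 FPKM in the mutant ASXL1 knockout clones, against 105, 111 and 113 FPKM in the parental clones, and fell by 0.37 (SE 0.0477, adjusted p = 0.00403). CDCA8, which encodes borealin and whose promoter is shown above, had 35.4, 38.7 and 36.3 FPKM against 49.4, 48.2 and 45.7 FPKM and fell by 0.37 (SE 0.0605, adjusted p = 0.00855). The scaffold gene INCENP overlapped between the groups, and the survivin gene BIRC5 was lower without overlap but did not pass (adjusted p = 0.379 and 0.125). Within a single complex the differences thus ran from -0.13 to -0.37.

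Among the role groups of the 38, the centromere and kinetochore genes were the most uniform: 4 of 5 fell, all 5 were lower without overlap, and the median was -0.37. This holds for the 5 listed, since 35 further genes of this kind, given below, had a median of -0.14. NDC80, the subunit of the NDC80 complex that grips microtubules, had 37.5, 39.7 and 37.2 FPKM in the mutant ASXL1 knockout clones, against 48.4, 54.9 and 48.7 FPKM in the parental clones, and fell by 0.40 (SE 0.0680, adjusted p = 0.00938). CENPF, a large outer kinetochore protein, had 59.9, 54.0 and 55.4 FPKM against 71.4, 73.7 and 77.5 FPKM in the same order and fell by 0.39 (SE 0.0608, adjusted p = 0.00710). CENPA, the histone H3 variant that marks centromeres, had 28.2, 29.8 and 26.8 FPKM against 38.6, 35.1 and 37.1 FPKM and fell by 0.37 (SE 0.0667, adjusted p = 0.0106). In each of the 3 genes even the highest knockout clone lay well below the lowest parental clone. CENPE fell by 0.34 (SE 0.0803, adjusted p = 0.0280), with 7.95, 7.87 and 8.75 FPKM in the knockout clones and 10.1, 10.7 and 11.0 FPKM in the parental clones, and was called in 6 of 15 alternatives (adjusted p up to 0.124). NUF2, the partner of NDC80, lay just outside the threshold (-0.29, adjusted p = 0.0592), with 24.3, 29.3 and 30.4 FPKM in the knockout clones and 34.2, 33.7 and 34.9 FPKM in the parental clones. It overlaps RGS5 on the opposite strand, and CENPA overlaps SLC35F6 on its own strand. Whether reads were counted by strand is not given in the sources used here.

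Of the mitotic kinesins 4 of 5 fell, with a median of -0.38. KIF2C, which encodes MCAK, a kinesin that takes microtubules apart at centromeres, had 72.6, 76.7 and 70.0 FPKM in the mutant ASXL1 knockout clones, against 94.2, 99.3 and 97.8 FPKM in the parental clones, and fell by 0.41 (SE 0.0536, adjusted p = 0.00425). KIF20A and KIF23, both needed at the central spindle for cytokinesis, fell by 0.40 (SE 0.0780, adjusted p = 0.0147) and by 0.38 (SE 0.0800, adjusted p = 0.0185). KIF4A, a chromosome-bound kinesin, fell by 0.27 (SE 0.0767, adjusted p = 0.0439), and was called in 2 of 15 alternatives. Its call was lost under all 4 other scalings and whichever clone was left out (adjusted p up to 0.278). KIF11, the Eg5 motor that pushes spindle poles apart, stood out among them: it had 14.3, 14.5 and 13.9 FPKM in the knockout clones and 15.0, 14.7 and 13.3 FPKM in the parental clones, a difference of -0.01 with a 95% interval of -0.18 to 0.16. That interval does not reach the fall of any of the other 4 kinesins. KIF20A overlaps BRD8 and CDC23, and KIF4A overlaps PDZD11, each expressed on the opposite strand.

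Of the other spindle and chromosome genes 3 of 6 fell, DLGAP5, TPX2 and TOP2A. DLGAP5, which encodes the microtubule-binding protein HURP, had 23.2, 26.0 and 24.1 FPKM in the mutant ASXL1 knockout clones, against 29.7, 31.9 and 32.8 FPKM in the parental clones, and fell by 0.35 (SE 0.0703, adjusted p = 0.0155). TPX2, which activates Aurora A on spindle microtubules, fell by 0.20 (SE 0.0439, adjusted p = 0.0217). TOP2A, the topoisomerase that untangles sister chromatids, had 107, 109 and 111 FPKM against 126, 124 and 123 FPKM and fell by 0.19 (SE 0.0419, adjusted p = 0.0217). TPX2 was called in 7 of 15 alternatives and TOP2A in 6 of 15, and both calls were lost with median-ratio, step and equal-sum scaling (adjusted p up to 0.493 and 0.659). ASPM, a spindle pole protein, was lower without overlap and just outside the threshold (-0.19, adjusted p = 0.0597). NUSAP1 overlapped, and HMMR, a microtubule-binding protein, had 41.8, 42.4 and 40.8 FPKM in the knockout clones and 40.2, 42.2 and 45.2 FPKM in the parental clones, a difference of -0.03 (95% interval -0.17 to 0.12). Among the 3 genes of the spindle midzone and of cytokinesis 0 passed by limma, and 1, PRC1, was under an unadjusted p of 0.05. ECT2, which switches on RhoA at the cleavage site, differed by -0.01 (95% interval -0.16 to 0.15), and the scaffold gene ANLN overlapped.

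The 3 knockout clones did not contribute alike. Relative to the parental mean, the members' median was -0.22, -0.17 and -0.27 in clones 1, 2 and 3, against all-gene medians of -0.05, -0.05 and -0.06. The second clone was the highest of the 3 knockout clones in 26 of 38 members, against 37.4% of all tested genes, and the third was the lowest in 23. The 3 parental clones had member medians of -0.04, 0.01 and 0.02 around their own mean. Leaving out 1 clone at a time lowered the count of members called to between 7 and 15, and it was 7 without knockout clone 1, without knockout clone 3 or without parental clone 2.

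How the libraries are put on one scale sets the size of these differences, since summed FPKM was lower in every mutant ASXL1 knockout clone. As deposited, 17 members fell and 0 rose. With upper-quartile scaling 14 fell, with median-ratio scaling 12 fell, and with each library divided by the step its low values share 11 fell and 1, MAD2L1, rose. With every library brought to the same summed FPKM 6 fell and 1, MAD2L1, rose. The last scaling moved the median of all genes to 0.08, against -0.06 as deposited, and the members' median to -0.04, against -0.20. The share of all calls in the higher direction moved with it. Over all genes 3039 of 13597 were called as deposited, 35.4% of them higher. The calls numbered 2844 of 13592 with upper-quartile scaling (45.0% higher) and 2815 of 13593 with median-ratio scaling (51.0% higher). With step scaling they numbered 2874 of 13601 (56.5% higher), and at equal sums 3171 of 13587 (73.5% higher). Calls in the lower direction thus became fewer over all genes too, as they did among the members. Each scaling divides all genes of a library by 1 factor, which moves the members' median and the all-gene median nearly alike. The gap between them, 0.12 to 0.14 under all 5 scalings, is therefore nearly fixed and tests nothing. For the same reason 33 of 38 members lay below the median gene under each. The fold change of CDK1, CCNA2, CDC25C, BUB3, INCENP, BIRC5, KIF11, HMMR, ECT2 and ANLN was above 0 under at least 1 scaling. BUB1, AURKB, KIF2C, CENPF and NDC80 were called lower in all 15 alternatives tried, with adjusted p up to 0.0463. CDCA8 and CENPA were called in 14, KIF20A in 12, CCNB1 and DLGAP5 in 11 and KIF23 in 10, and the other 6 in between 2 and 7.

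**Figure D2:**
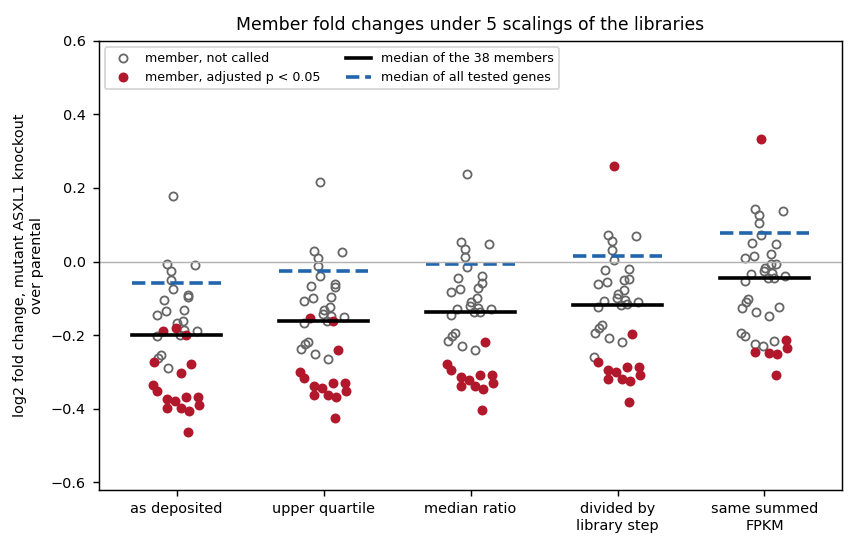
Each dot is 1 of the 38 genes and the y axis its log2 fold change, mutant ASXL1 knockout over parental, under 5 ways of scaling the libraries. Filled dots passed an adjusted p of 0.05, the solid line is the members' median and the dashed line the median of all tested genes. Both lines move up from left to right, and the number of filled dots below 0 drops to 6. Calls in the lower direction drop over all genes too. Each scaling divides a library by 1 factor, so the distance between the lines (0.12 to 0.14) is nearly fixed.

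In the authors' deposited table for this comparison 20 of the 38 members were lower and 0 higher at an adjusted p under 0.05, against 16.7% of the 13597 genes tested here lower in that table. Of these, 14 were also called here. PLK1, TPX2 and TOP2A passed only here, and CDC25B, AURKA, BUB1B, INCENP, NUF2 and NUSAP1 only in the authors' deposited table. Its median over the members was -0.18.

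Other genes of mitosis were counted from lists drawn from general knowledge, but chosen with earlier results of these data known. Their counts stand against 14.4% of all tested genes lower and 7.91% higher as deposited. At equal sums 3171 of 13587 genes were called, 73.5% of them higher. Of 23 further spindle and kinesin genes 9 fell and 0 rose as deposited (4 fell and 3 rose at equal sums), with a median of -0.24. FAM83D, which anchors casein kinase to the spindle, fell by 0.57 (SE 0.0753, adjusted p = 0.00426), and KIF22 fell by 0.41 (SE 0.0497, adjusted p = 0.00347). Of 22 other mitotic regulators 10 fell and 0 rose (3 and 1 at equal sums), among them HMGB2, a chromatin protein abundant in dividing cells, at 211, 207 and 222 FPKM in the mutant ASXL1 knockout clones, against 345, 329 and 322 FPKM in the parental clones. HMGB2 fell by 0.64 (SE 0.0485, adjusted p = 0.000948), and MKI67, the Ki-67 proliferation antigen, fell by 0.45 (SE 0.0927, adjusted p = 0.0169). Of 35 further kinetochore and centromere genes 8 fell and 2 rose (4 and 4 at equal sums). Their median was -0.14 (0.014 at equal sums), with 25 fold changes negative and 10 positive as deposited. CENPW had 35.3, 37.6 and 34.9 FPKM against 61.7, 56.3 and 62.8 FPKM, knockout before parental, and fell by 0.73 (SE 0.0641, adjusted p = 0.00133), and CENPU fell by 0.68 (SE 0.0612, adjusted p = 0.00141). Of 11 cytokinesis genes 4 fell and 0 rose (1 and 1 at equal sums). A list of 19 genes held APC/C subunits and related proteins that are not subunits, and 7 fell and 0 rose (3 and 1 at equal sums). PTTG1, the separase inhibitor securin and not an APC/C subunit, was among them (-0.36, adjusted p = 0.00954).

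Of 18 condensin and cohesin genes 4 fell and 2 rose (1 and 6 at equal sums), with a median of 0.04. SMC1A, a cohesin subunit, had 59.6, 55.8 and 56.0 FPKM in the mutant ASXL1 knockout clones, against 37.4, 41.6 and 41.1 FPKM in the parental clones, and rose by 0.50 (SE 0.0628, adjusted p = 0.00360), while its partner SMC3 fell by 0.31 (SE 0.0580, adjusted p = 0.0128) and the condensin gene NCAPG fell by 0.45 (SE 0.0635, adjusted p = 0.00528). Of 46 DNA replication and G1/S genes 9 fell and 3 rose as deposited, with a median of -0.12. These calls made up 26.1% of the list, against 22.4% of all tested genes. At equal sums 2 were lower and 10 higher, with a median of 0.03. Calls over all genes were also mostly higher at equal sums (73.5% of 3171). Of 24 genes for regulators of G2/M transcription 3 fell and 2 rose (0 and 7 at equal sums). As deposited 20.8% of them were called, against 22.4% of all tested genes. MYBL2, which encodes B-MYB, fell by 0.30 (SE 0.0627, adjusted p = 0.0177) and E2F4 fell by 0.23 (SE 0.0482, adjusted p = 0.0183). E2F5 had 8.32, 7.33 and 7.51 FPKM in the knockout clones, against 4.22, 3.25 and 3.22 FPKM in the parental clones, and rose by 0.94 (SE 0.117, adjusted p = 0.00360). NFYA, which encodes a subunit of NF-Y, also rose, with 20.2, 26.0 and 21.6 FPKM against 17.0, 18.2 and 14.9 FPKM in the same order. The NFYA call was lost whichever clone was left out. FOXM1 had 25.9, 25.9 and 24.5 FPKM against 22.8, 21.9 and 18.4 FPKM, higher in all 3 knockout clones without passing (0.27, adjusted p = 0.0728). Erythroid markers moved in the same clones: 5 of 15 fell and 0 rose, against 14.4% and 7.91% of all tested genes. GATA1 was among those that fell (-0.44, adjusted p = 0.00606), and the markers' part in the mitotic differences was not tested.

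**Figure D3:**
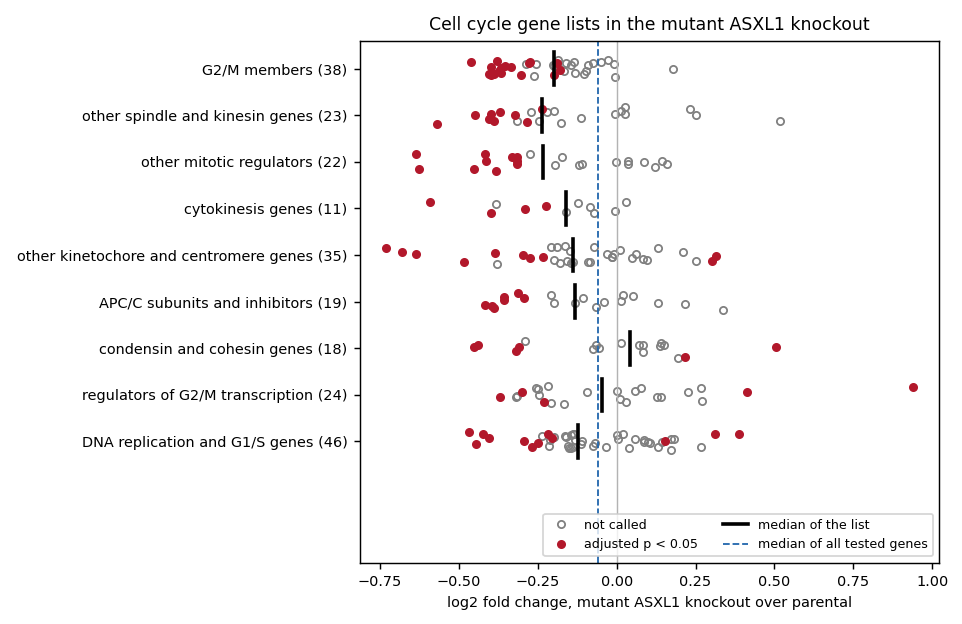
Each dot is 1 tested gene, placed by its log2 fold change, mutant ASXL1 knockout over parental, as deposited, with the 38 members in the top row and 8 other cell cycle lists under it (number of genes in brackets). Filled dots passed an adjusted p of 0.05, bars are list medians and the dashed line is the median of all tested genes. The members, the other spindle genes and the other mitotic regulators have medians near -0.2, while condensin and cohesin genes have a median above 0.

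The FOXK1 and FOXK2 comparisons asked whether loss of either forkhead factor moves the same genes, and no member passed in either. In the FOXK1 pools 0 of 37 tested members were called by limma, against 1.83% of all 13697 genes, and UBE2C was too low to be tested. At an unadjusted p under 0.05, 4 members were higher (BUB1, CDK1, MAD2L1 and CENPF) and 0 lower, against 22.9% of all genes in either direction. The members' median was 0.03, against 0.02 for all genes. BUB1 had 72.2 and 71.0 FPKM in the FOXK1 pools, against 60.7 and 63.0 FPKM in the SCR pools, without overlap (0.21, SE 0.0478, adjusted p = 0.107). CDK1 had 130.2 and 127 FPKM against 115 and 111 FPKM in the same order (0.18, adjusted p = 0.110). MAD2L1 had 65.7 and 67.8 FPKM in the FOXK1 pools and 57.5 and 51.4 FPKM in the SCR pools (0.29, adjusted p = 0.116). With 2 pools a group, the 95% interval of a member reached a median of 0.16 to either side of its log2 fold change before any adjustment over genes. Larger differences, such as those of BUB1 and MAD2L1, also did not pass the adjustment. The absence of calls therefore does not show that the members are unchanged. The authors' deposited table had 3 members higher in the FOXK1 pools, BUB1, TTK and MAD2L1, against 9.26% of the genes tested here, and 2 lower, TOP2A and KIF4A, against 10.5%, so neither count exceeds the background.

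In the FOXK2 pools 0 of 38 members were called by limma, against 1.02% of all 13672 genes. At an unadjusted p under 0.05, 2 were lower and 1 higher, against 20.7% of all genes in either direction, and the median was 0.00, against 0.01 for all genes. TOP2A had 91.5 and 91.5 FPKM in the FOXK2 pools, against 105 and 109 FPKM in the SCR pools, without overlap (-0.22, SE 0.0502, adjusted p = 0.130). CDC25B had 18.2 and 18.5 FPKM against 21.4 and 20.9 FPKM in the same order (-0.20, adjusted p = 0.209). MAD2L1 had 68.0 and 60.9 FPKM in the FOXK2 pools and 57.5 and 51.4 FPKM in the SCR pools (0.24, adjusted p = 0.232). The authors' deposited table had 2 members higher in the FOXK2 pools, TTK and MAD2L1, against 6.84% of the genes tested here, and 1 lower, TOP2A, against 10.9%, again no more than the background. Both knockouts were set against the same 2 SCR pools, so a deviation of an SCR pool enters both fold changes.

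**Figure D4:**
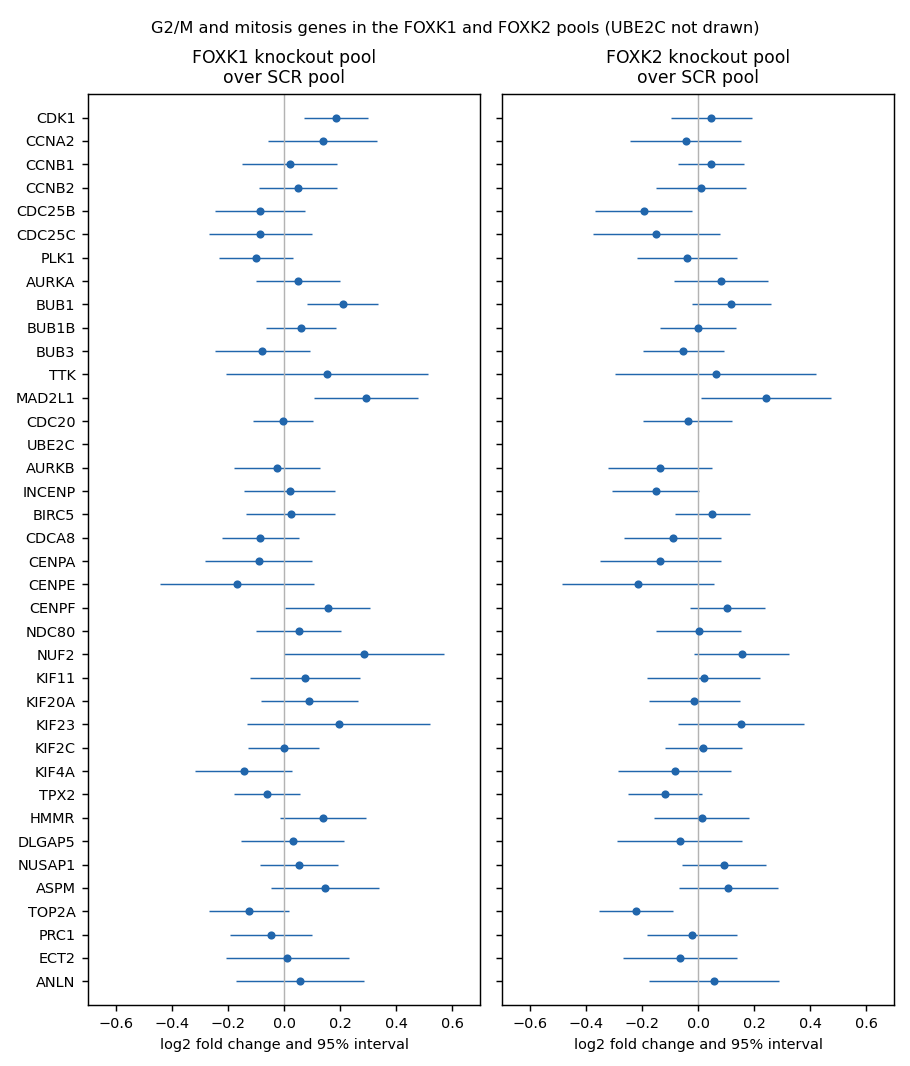
Each row is 1 gene, and each dot its log2 fold change over the SCR pools with a 95% interval, for the FOXK1 pools on the left and the FOXK2 pools on the right (UBE2C is not drawn). Dots lie on both sides of 0 in both panels, and those of the FOXK1 panel with an interval clear of 0, BUB1, CDK1, MAD2L1 and CENPF, did not pass the adjustment over all genes.

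The 2 knockouts were also compared with each other in a joint fit of all 6 pools. Between the FOXK2 and the FOXK1 pools 0 of 38 members were called by limma, against 0.0368% of all 13603 genes, and 2 were under an unadjusted p of 0.05, against 6.59%. INCENP had 28.9 and 28.3 FPKM in the FOXK2 pools and 33.4 and 31.2 FPKM in the FOXK1 pools (-0.17, adjusted p = 0.743). CDK1 had 114 and 120.1 FPKM in the FOXK2 pools and 130.2 and 127 FPKM in the FOXK1 pools (-0.14, 95% interval -0.26 to -0.02, adjusted p = 0.746). The members' median was -0.05, against -0.02 for all genes.

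Outside the 38, 1 of 35 further kinetochore and centromere genes passed in the FOXK1 pools, against 1.83% of all tested genes. In the FOXK2 pools 1 of 19 APC/C and related genes passed, against 1.02% of all tested genes. In either comparison 0 passed of 23 further spindle and kinesin, 11 cytokinesis, 18 condensin and cohesin genes and 22 other mitotic regulators. Such single calls are not a result about mitotic genes as a set. MAD1L1, which encodes MAD1, the kinetochore anchor of MAD2, fell to 22.7 and 23.9 FPKM in the FOXK1 pools, against 32.5 and 33.0 FPKM in the SCR pools (-0.48, SE 0.0605, adjusted p = 0.0473). In the FOXK2 pools it had 23.6 and 27.0 FPKM and did not pass (-0.37, adjusted p = 0.134). ANAPC16, a small APC/C subunit, fell to 71.5 and 72.6 FPKM in the FOXK2 pools, against 97.0 and 98.8 FPKM in the SCR pools (-0.44, SE 0.0496, adjusted p = 0.0446). It had 67.3 and 76.9 FPKM in the FOXK1 pools and did not pass there (-0.44, adjusted p = 0.0746). Both calls were lost whenever 1 pool was left out, when limma called 0 genes in all. Of the 46 DNA replication and G1/S genes 0 were called by limma in either comparison, with medians of 0.13 in the FOXK1 pools and 0.10 in the FOXK2 pools, against 0.02 and 0.01 for all genes. At an unadjusted p under 0.05, 17 were higher and 1 lower in the FOXK1 pools, against 22.9% of all genes in either direction, and 14 were higher and 2 lower in the FOXK2 pools, against 20.7%. Erythroid markers moved in the same pools: 5 of 15 rose in the FOXK1 pools, the globin genes HBG1, HBG2, HBE1, HBA1 and HBA2, against 1.83% of all genes called, although these calls too were lost with 1 pool left out. HBG2 had 21925 and 22839.8 FPKM in the FOXK1 pools, against 13499.9 and 12742 FPKM in the SCR pools (0.77, adjusted p = 0.0183), and 20063 and 22464 FPKM in the FOXK2 pools, where 0 of the 15 passed by limma and 6 were under an unadjusted p of 0.05. HBG1 and HBG2, and HBA1 and HBA2, are near-identical pairs whose reads may be split between them. The summed level of the 15 markers was 31091 to 32239 FPKM in the FOXK1 pools, 27851 to 32386 FPKM in the FOXK2 pools and 19120 to 20137 FPKM in the SCR pools, and their part in the mitotic and replication values was not tested.

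The SCR pools give a second set of K562 controls. They were deposited in other tables than the clones, and whether both were processed together is not given, so levels were only set side by side. Of the 17 members that fell in the mutant ASXL1 knockout clones, 10 were lower in both SCR pools than in every parental clone, and 2 were higher. The same parental clones enter both comparisons, and among all 1964 genes called lower in the mutant ASXL1 knockout clones 41.2% were lower in both SCR pools. Of all 38 members 17 were, against 21.9% of all 13597 tested genes. NDC80 had 37.5, 39.7 and 37.2 FPKM in the mutant ASXL1 knockout clones, 39.8 and 40.5 FPKM in the SCR pools and 48.4, 54.9 and 48.7 FPKM in the parental clones, so the SCR pools were closer to the knockout clones. CENPA likewise had 29.5 and 32.1 FPKM in the SCR pools, against 28.2, 29.8 and 26.8 FPKM in the knockout and 38.6, 35.1 and 37.1 FPKM in the parental clones. BUB1 lay between the groups and nearer the knockout clones, at 60.7 and 63.0 FPKM in the SCR pools. Its range was 52.3 to 57.1 FPKM in the knockout and 73.6 to 77.9 FPKM in the parental clones. KIF2C, at 92.2 and 87.9 FPKM, also lay between them but nearer the parental clones (94.2 to 99.3 FPKM). AURKB had 107 and 98.4 FPKM in the SCR pools, closer to the parental clones. CENPF had 77.3 and 75.02 FPKM there, within the range of the parental clones (71.4, 73.7 and 77.5 FPKM). TOP2A was lower in the SCR pools, at 105 and 109 FPKM, than in the parental clones and near its level in the knockout clones. No test was made across the tables.

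**Figure D5:**
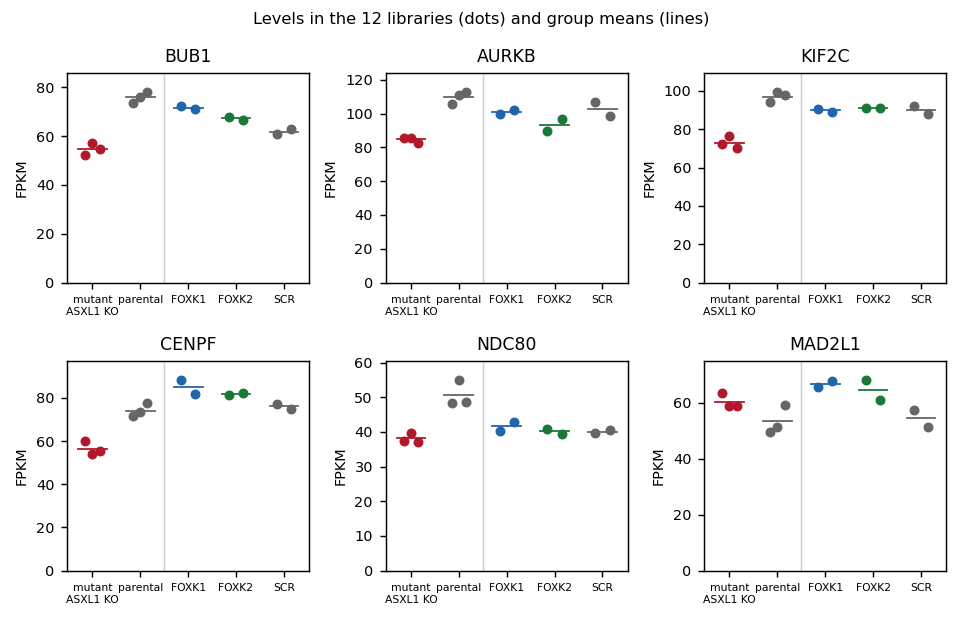
FPKM of the 5 members called in all alternatives and of MAD2L1 in each of the 12 libraries (dots), with group means (lines). A vertical line separates the clones from the pools, which were deposited in separate tables. The mutant ASXL1 knockout clones are the lowest group in every panel but that of MAD2L1, and in the NDC80 panel all pools lie near the knockout clones.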

How the data were processed

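RNA of 12 K562 libraries was sequenced as paired reads on an Illumina HiSeq 4000, per the labels' protocols. The authors deposited FPKM values for 58233 genes in each of 3 tables, per the file headers. The authors also deposited log2 fold changes and p-values with their adjusted p-values, per the file headers, and these are quoted only where named as theirs. The submitters' processing notes name GRCh38.p10, TopHat, Bowtie, RSEM, edgeR and Cufflinks, with no role or version. Counts and depth were not used here: in each library 98.9% to 100% of values under 1 FPKM were multiples, to the third decimal, of 1 step near 0.01 FPKM, while the smallest values still fell with transcript length, so the step is not 1 read for every gene. The tests planned for counts were therefore not run.

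FPKM were used as deposited. A gene was tested when it reached 1 FPKM in as many libraries as the smaller group holds, or more, and limma 3.58.1 (R 4.3.3, variance trend, not robust) was fitted to log2(FPKM + 1), which understates the change of low genes. Tests were two-sided. Each knockout was fitted with its own controls, and the FOXK2 and FOXK1 pools in a joint fit of 6 pools. The script was tested on simulated data. Replicate numbers were not used as pairs, since same-numbered libraries deviated together with correlations of only -0.129 to 0.0839. The 38 members, their roles and the other lists were chosen with earlier results of these data known, and support nothing by their direction. All members are described. Of each other list, up to 4 called genes with the smallest adjusted p could be named, as could a few regulators. Alternatives were other pseudocounts, no low-value filter, 4 other scalings, no variance trend, a replicate block, other samples in the fit and leaving out each library. Overlaps and copies were looked up in GENCODE 29. KIF4B, the near-identical copy of KIF4A, had at most 0.15 FPKM, and pseudogene copies at most 0.073 FPKM. Tables were made in Python 3.11.15 and figures with matplotlib 3.10.9.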

Additional observations from a re-analysis of the deposited data

How the results depend on the processing

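In the mutant ASXL1 knockout comparison 17 members were called as deposited. The count was 10 with the replicate block, 7 (6 lower and 1 higher) at equal summed FPKM, and 7 to 15 with 1 clone left out. The members' median of -0.20 became -0.14 with median-ratio scaling, -0.12 with division by the library step and -0.045 at equal summed FPKM. Against 3039 genes called in all, the replicate block called 1824 and leaving out 1 clone called as few as 1287. Equal sums called 3171, of which 73.5% were higher, against 35.4% as deposited. The log2 fold change of LIN9 (-0.094) was 0.053 at equal sums, and that of LIN54 (0.0015) ran from -0.059 to 0.066 with 1 clone left out. The cause of these shifts was not tested.

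In the FOXK comparisons 0 members were called under every alternative run. The replicate block gave 0 there too, although over all genes it called 37 in the FOXK1 comparison, against 250 without it, and 34 with the pool numbers crossed, a pairing added after the data were seen. Over all alternatives limma called 0 to 470 genes in the FOXK1 comparison, 0 to 314 in the FOXK2 comparison (139 in the reported fit) and 2 to 14 between FOXK2 and FOXK1 (5 in the reported fit), and the highest count for each single knockout came with the joint fit of 6 pools. The FOXK1 members' median of 0.03 became 0.0087 with median-ratio scaling and -0.014 at equal sums, and 0.0095 to 0.049 with 1 pool left out. The FOXK2 median of 0.00 became -0.022 at equal sums and -0.028 to 0.020 with 1 pool left out. For FOXK2 against FOXK1 the median of -0.05 became -0.044 with a pseudocount of 5, -0.037 with median-ratio or upper-quartile scaling, -0.031 with division by the step, -0.019 at equal sums and -0.057 to -0.041 with 1 pool left out.

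The equal-sum and step scalings and all alternatives for the medians were added after the data were seen. With 1 library of a pool left out, the lone one is assumed to vary like the others. The tests planned for counts were not run, since the values are not whole reads.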
